A study of Homo sapiens with 6 samples.

Results

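The genes described here code for 10 secreted proteins of the extracellular matrix, MGP, SPARC, SPP1, TNC, POSTN, TGFBI, BGN, DCN, LUM and CCN4, out of 19775 genes with a probe set of their own on the array. Each was represented by the probe sets whose only annotated symbol was that gene, 30 of 41091 such probe sets. RNA was measured on 6 arrays of U251, a human glioma line, 3 from cells made to overexpress PARK2 and 3 from control cells made to overexpress GFP. Both lines had been infected with virus in the presence of polybrene and selected with puromycin, so the controls share the infection and the selection. PARK2 codes for parkin, a ubiquitin ligase. The arrays of a group are called biological replicates, with no statement of separate cultures or infections or of whether a line is 1 clone, so the p-values reflect only the spread among these arrays, which could be purely technical. MGP was chosen by its large fall in PARK2 arrays, that is, on the intensities given here, so its values are described without a test. The other 9 genes were added as related matrix glycoproteins, with earlier results of these data known.

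Matricellular proteins are secreted into the matrix, where they bind collagen, growth factors and cell surface receptors and modulate adhesion, more than they bear load. Small leucine-rich proteoglycans such as biglycan, decorin and lumican bind collagen fibrils. In glioma, tenascin-C, osteopontin and SPARC are well-known matrix products of the tumour cells.

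Each probe set had a deposited intensity on a linear scale for every array. A log2 fold change here is the difference of mean log2(intensity + 16), PARK2 minus control, where 16 is a pseudocount, and it understates the change of dim probe sets. A probe set was tested if its mean log2 value reached the 40th percentile of all probe sets, which corresponds to an intensity of 9.87. Adjusted p-values of member probe sets are from limma with Benjamini-Hochberg adjustment over all 26603 probe sets tested. Those of marker, neighbouring and related genes are from limma on each gene's brightest probe set, adjusted over 13720 genes. A gene or probe set is said to have risen or fallen where the adjusted p-value is under 0.05. Of the 30 probe sets 15 passed the filter, among them both of MGP, both of SPARC, both of SPP1, all 3 of TNC, 2 of 4 of POSTN, the 1 of TGFBI, 1 of 3 of BGN and 2 of 7 of DCN. Neither probe set of LUM and none of the 4 of CCN4 passed.

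Array medians ran from 16.2 to 19.3 in PARK2 and from 16.7 to 18.4 in control arrays, and 2% trimmed means from 141 to 155 and from 137 to 168. The highest trimmed mean was that of control replicate 1. The ratio of the 3' over the 5' actin control probe set ran from 3.53 to 5.66 in PARK2 and from 3.83 to 5.31 in control arrays. It was highest in replicate 1 of each group. For GAPDH it ran from 1.02 to 1.06 and from 1.04 to 1.17. Markers of the glial lineage were present, with 8 of 8 past the filter and a summed intensity of 28321 to 29338 in PARK2 and 26024 to 31079 in control arrays. Of these, GFAP (0.53) and SOX2 (0.30) rose and S100B (-1.39) fell. The call of GFAP was lost without PARK2 replicate 2 (adjusted p 0.0857) or control replicate 2 (0.124), and that of SOX2 without any single array other than control replicate 1 (0.0694 to 0.209). As the mean of its probe sets GFAP was at -0.027. Of 8 myeloid markers 1 passed the filter (ITGAM, -0.23, adjusted p 0.514), and of 7 endothelial markers 2 passed (PECAM1, -0.04, adjusted p 0.925, and KDR, 0.08, adjusted p 0.824). Their summed intensities were 42.5 to 67.7 in PARK2 and 52.7 to 61.4 in control arrays for myeloid markers, and 111 to 160 and 129 to 133 for endothelial ones. Of 6 fibroblast markers 5 passed, of which COL1A2 (0.56) rose and THY1 (-0.80) and FAP (-1.13) fell, with a summed intensity of 5985 to 6978 in PARK2 and 5100 to 6002 in control arrays. Of 6 bone and cartilage markers 2 passed, RUNX2 (-0.62) and ACAN (-0.73), and both fell, with summed intensities of 863 to 897 and 1235 to 1554. Most of these sums came from RUNX2 (means 845 in PARK2 and 1317 in control cells). Likewise most of the fibroblast sums came from COL1A2 (means 5496 and 3724). As the mean of its probe sets RUNX2 was at 0.18, so its fall was seen on the brightest probe set and not on that mean. The call of ACAN was lost without PARK2 replicate 2 (adjusted p 0.113), as the mean of its probe sets (-0.37, adjusted p 0.230) and with the shift of chromosomal neighbours taken away (-0.07, adjusted p 0.843). Of 4 smooth muscle markers 3 passed and 0 changed by limma, also at an unadjusted p under 0.05 (MYH11, -0.43, adjusted p 0.177, and ACTA2, 0.17, adjusted p 0.495), with sums of 266 to 288 and 236 to 300. The part of these differences in the results below was not tested.

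MGP was about 12-fold lower in PARK2 cells. MGP codes for matrix Gla protein, a small secreted protein that carries vitamin K-dependent carboxylated glutamates, inhibits calcification of soft tissue and binds bone morphogenetic proteins. On probe set 202291_s_at it measured 170, 149 and 127 intensity units in PARK2 replicates 1 to 3, against 2544, 1731 and 1225 in control replicates 1 to 3. All PARK2 arrays lay far below all control arrays, and the highest PARK2 value was 170 where the lowest control value was 1225. The means were 149 ± 21.6 in PARK2 and 1834 ± 666 in control cells (SD, n = 3 each), a ratio of 12.3 of control over PARK2 and a log2 fold change of -3.43. Among 13720 genes, each taken on its brightest probe set, this log2 fold change ranked 7 from the lowest. In RNA from a whole culture, fewer cells with the transcript and less transcript per cell cannot be told apart.

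The other MGP probe set, 238481_at, also lay lower in every PARK2 array. It measured 0.961, 6.61 and 3.84 in PARK2 and 26.0, 18.6 and 18.5 in control arrays, a log2 fold change of -0.91. All 3 PARK2 values were below the intensity of the filter, so this difference depends on the pseudocount, and it was -0.33 with a pseudocount of 64. The same probe set gives the value for the gene when those marked _x_at and _s_at are set aside, and the mean of both was -2.17. On 202291_s_at the log2 fold change was -3.56 with a pseudocount of 1 and -3.10 with 64.

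Control arrays disagreed more on the brighter MGP probe set than on most probe sets. The highest control value of 202291_s_at was 2.08 times the lowest, against 1.34 times among PARK2 arrays. Its SD in control arrays was 0.52 on the log2 scale, at the 96.0th percentile of the probe sets tested, and 0.19 in PARK2 arrays. With each array scaled to the same trimmed mean, the control range was still 1.69-fold. The control SD of the other MGP probe set, 238481_at, was 0.16, at percentile 33.1. That probe set is dim and the pseudocount narrows its log2 spread, so this SD cannot show whether the wide spread was limited to 202291_s_at. Its highest control value, in replicate 1 as on 202291_s_at, was 1.41 times the lowest. The 3 genes whose centred log2 values over the 6 arrays lay nearest to those of MGP were SERPINA3, CHST1 and MYO5B, at Euclidean distances of 0.38, 0.54 and 0.61. SERPINA3, an inhibitor of serine proteases, measured 56.6, 49.5 and 59.7 in PARK2 and 1088, 832 and 529 in control arrays, where replicate 1 was again the highest and replicate 3 the lowest of the controls. CHST1, a carbohydrate sulfotransferase, measured 33.2, 22.5 and 31.9 in PARK2 and 602, 452 and 417 in control arrays. MYO5B, an unconventional myosin, measured 39.9, 46.6 and 40.7 in PARK2 and 615, 459 and 342 in control arrays. All 3 genes were thus low in every PARK2 array, and the distance is mostly set by the difference between the groups.

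The nearest tested genes on chromosome 12 did not share the difference of MGP. C12orf60 was at 0.44 (limma's adjusted p 0.146 over genes) and ERP27 at -0.37 (adjusted p 0.271). The median shift of the 10 tested genes on either side of MGP was -0.03, and with this shift taken away MGP was at -3.40.

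**Figure D1:**
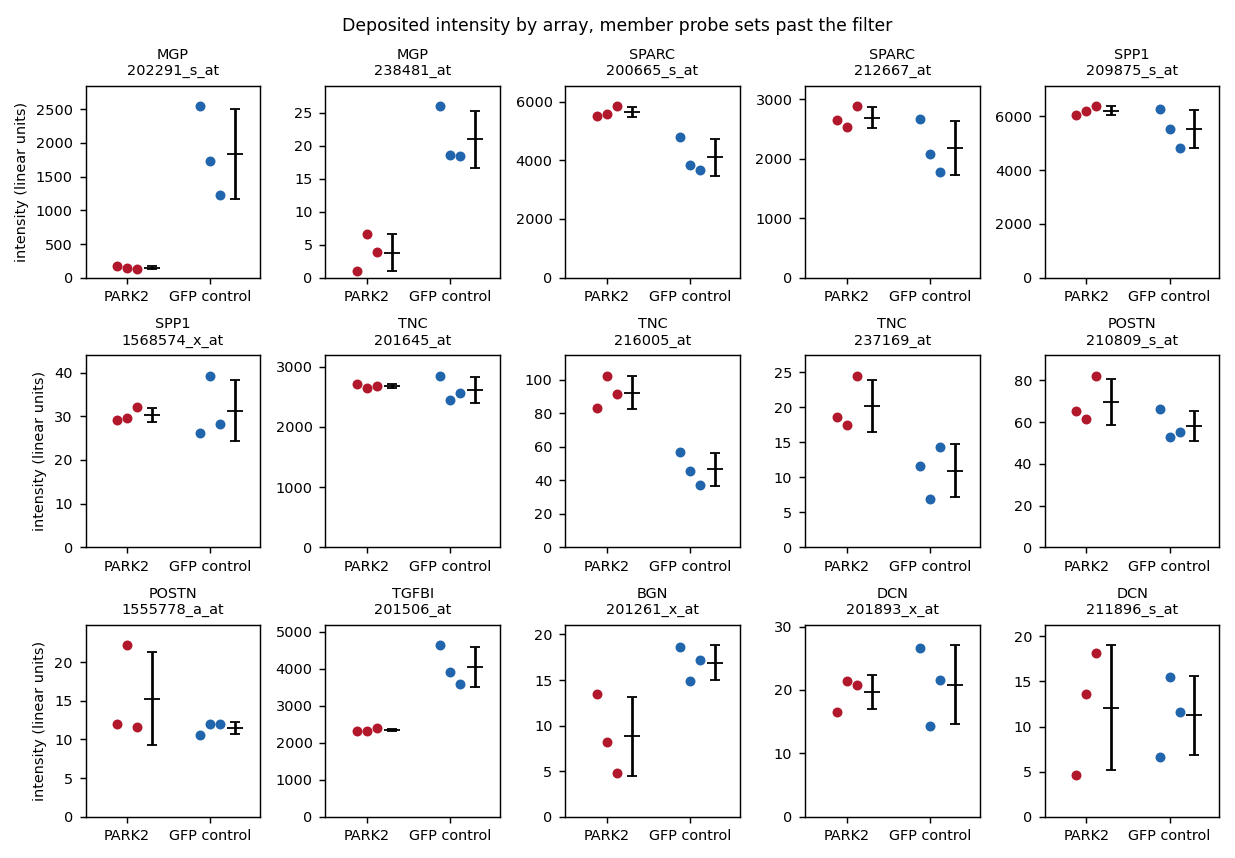
Deposited intensity (linear units, y axis from 0) of the 15 member probe sets past the filter, with a point for each array of PARK2 cells (red, left) and GFP control cells (blue, right) and black bars for mean and SD, n = 3 each. Both MGP panels, TGFBI and BGN have all PARK2 points below all control points, while SPARC 200665_s_at, TNC 216005_at and TNC 237169_at have all PARK2 points above.

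Of the 9 other genes 7 had a probe set past the filter, and SPARC rose while TGFBI fell. With each gene on its brightest probe set and p-values adjusted over 13720 genes, 1 of the 7 was higher and 1 lower, where 13.3% of all genes tested were higher and 15.6% lower. The median log2 fold change of the 7 was 0.04, against -0.00255 over all genes tested. On the level of probe sets, 2 of 13 were higher and 1 was lower, against 9.1% and 11.3% of all probe sets tested. The groups did not overlap in 5 of the 13, 3 with PARK2 above and 2 with PARK2 below control, where 16% and 19.1% of all probe sets tested did so. Without control replicate 1, 2 genes and 4 probe sets were higher. In that setting 2799 of all 13720 genes tested were higher, against 1818 with all arrays. The shares with all arrays are near the background, and probe sets of 1 gene are not independent of each other.

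TGFBI fell. The gene codes for a secreted protein of fasciclin domains, known for its induction by TGF-beta and for binding collagens and integrins. Probe set 201506_at measured 2327, 2315 and 2388 in PARK2 arrays, against 4627, 3911 and 3583 in control arrays. The PARK2 values lay within a narrow band and the groups were far apart. The means were 2343 ± 38.9 in PARK2 and 4040 ± 534 in control cells (SD, n = 3 each), so PARK2 cells had 0.580 of the control level. The log2 fold change was -0.77 (SE 0.12, limma's adjusted p 0.000127), and it was past the threshold under each alternative tried, with values from -0.86 to -0.67. Its neighbours on chromosome 5, SLC25A48 and SMAD5, were at 0.01 and 0.08 (adjusted p 0.983 and 0.749 over genes).

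SPARC rose by a smaller amount. SPARC codes for osteonectin, a calcium- and collagen-binding matricellular protein that loosens cell adhesion. Probe set 200665_s_at measured 5514, 5570 and 5841 in PARK2 arrays, against 4806, 3825 and 3658 in control arrays, with no overlap. The means were 5642 ± 175 and 4096 ± 620 (SD, n = 3 each), a ratio of 1.38 of PARK2 over control. The log2 fold change was 0.47 with an SE of 0.12 (limma's adjusted p 0.00726). This call was lost without the filter (adjusted p 0.0503) and without an intensity trend in the variance model (0.0679). SPARC's other probe set, 212667_at, measured 2656, 2532 and 2880 in PARK2 arrays, against 2665, 2079 and 1780 in control arrays. Control replicate 1 overlapped the PARK2 arrays there, and its log2 fold change, 0.32 with an SE of 0.14, did not pass (limma's adjusted p 0.118). It passed when control replicate 1 was left out (0.48, adjusted p 0.00592) and under trimmed mean scaling (0.35, adjusted p 0.0154), and also under quantile normalization, with array weights and after the correction for chromosomal neighbours. The log2 difference between both SPARC probe sets was 1.07 in PARK2 and 0.92 in control arrays on average. The ranges, 1.02 to 1.13 in PARK2 and 0.85 to 1.03 in control arrays, overlapped (two-sided exact permutation p 0.2, where 0.1 is the smallest that 3 against 3 arrays allow, so no call could be made, 3 such pairs compared).

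The start regions of TGFBI and SPARC are given because these are the members that fell and rose. They are RefSeq sequences on GRCh38.p14, from 250 bases before to 50 after the start and read along the gene, and capitals mark every match to a searched motif. Of the 10 members 6 had an entry in the table used, SPARC, SPP1, TNC, POSTN, TGFBI and BGN.
TGFBI chr5:136028738-136029037 (+): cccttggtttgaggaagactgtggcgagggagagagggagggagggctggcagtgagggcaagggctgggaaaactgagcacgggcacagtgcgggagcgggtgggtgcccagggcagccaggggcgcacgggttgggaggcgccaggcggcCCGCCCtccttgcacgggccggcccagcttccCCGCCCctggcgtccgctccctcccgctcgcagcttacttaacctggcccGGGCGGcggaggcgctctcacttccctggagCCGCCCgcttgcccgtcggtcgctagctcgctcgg
SPARC chr5:151686866-151687165 (-): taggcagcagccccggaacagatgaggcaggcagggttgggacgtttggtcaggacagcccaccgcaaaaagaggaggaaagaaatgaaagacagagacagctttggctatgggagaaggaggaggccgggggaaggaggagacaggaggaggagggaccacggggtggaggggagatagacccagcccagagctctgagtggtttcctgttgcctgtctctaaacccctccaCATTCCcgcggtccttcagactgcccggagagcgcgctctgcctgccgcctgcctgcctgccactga
Searched on both strands were the GC box GGGCGG, the TATA box TATAAA, the CCAAT box CCAAT, the AP-1 site TGANTCA and the TEAD site GGAATG, and no matches of different motifs overlapped in these 2 sequences. The TGFBI sequence held 4 GC boxes, beginning 98, 66 and 16 bases before the start and 15 after it, and 27 CpG, where the median of all 35116 start regions was 14 and 45% held a GC box. The SPARC sequence held 11 CpG and a single TEAD letter match, 17 bases before the start, as did 14% of all start regions. TATAAA was found in neither, against 11.5% of all, nor was CCAAT (34.6%) or TGANTCA (7.71%). These are matches of letters and no evidence of binding.

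TNC gave different answers by probe set. TNC codes for tenascin-C, a large glycoprotein of many repeated domains that binds integrins and other receptors and is abundant in glioma matrix. Probe set 201645_at, drawn from the reference transcript, measured 2714, 2650 and 2677 in PARK2 arrays, against 2847, 2437 and 2557 in control arrays. The groups overlapped, and the log2 fold change was 0.04 (SE 0.11, 95% interval -0.20 to 0.28, limma's adjusted p 0.866). Probe set 216005_at measured 82.9, 102 and 91.5 in PARK2 arrays, against 56.7, 45.6 and 37.2 in control arrays. Here every PARK2 array lay above every control array, with means of 92.3 ± 9.76 and 46.5 ± 9.77 (SD, n = 3 each). The log2 fold change was 0.80 with an SE of 0.18 (limma's adjusted p 0.00416). Its sign and call held under each alternative in which it could be tested, with values from 0.50 to 0.99.

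The remaining TNC probe set, 237169_at, measured 18.6, 17.5 and 24.5 in PARK2 arrays, against 11.6, 6.94 and 14.3 in control arrays. The groups did not overlap, but the log2 fold change was 0.43 (SE 0.22, limma's adjusted p 0.189) and did not pass. It ran from 0.17 with a pseudocount of 64 to 0.86 with 1, and passed with array weights (0.61, adjusted p 0.00744). The log2 difference between 216005_at and 201645_at averaged -4.64 in PARK2 and -5.40 in control arrays, without overlap. That is a change of 0.76 in their ratio, at the smallest two-sided exact permutation p that this design allows (0.1). For 237169_at against 201645_at the change was 0.39, also at 0.1. Which part of the TNC transcript each probe set reads is not given in the annotation used here. Taken as the mean of its probe sets, TNC was at 0.42 (adjusted p 0.0284 over genes).

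SPP1 did not pass the test on the values as deposited. SPP1 codes for osteopontin, a secreted phosphoprotein that binds integrins and CD44. Probe set 209875_s_at measured 6043, 6210 and 6378 in PARK2 arrays, against 6261, 5529 and 4827 in control arrays. The groups overlapped through control replicate 1, and the log2 fold change was 0.17 (SE 0.11, 95% interval -0.06 to 0.40, limma's adjusted p 0.319). Without that array it was 0.26 (adjusted p 0.0250), and it was past the threshold under quantile normalization (0.21, adjusted p 0.0192), trimmed mean scaling (0.20, adjusted p 0.0388) and array weights (0.18, adjusted p 0.0284). With the shift of its chromosomal neighbours (0.36) taken away it was at -0.19 (adjusted p 0.116). The other SPP1 probe set, 1568574_x_at, measured 29.1, 29.5 and 32.0 in PARK2 arrays, against 26.2, 39.3 and 28.4 in control arrays, a difference of -0.02 (limma's adjusted p 0.958).

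POSTN and BGN had differences within the error of the test. POSTN codes for periostin, a fasciclin-domain relative of TGFBI that acts in collagen assembly. Probe set 210809_s_at measured 65.1, 61.4 and 82.2 in PARK2 arrays, against 66.1, 52.7 and 55.2 in control arrays, and its log2 fold change was 0.21 (SE 0.18, limma's adjusted p 0.491). Probe set 1555778_a_at was at 11.96, 22.2 and 11.6 in PARK2 and 10.6, 11.94 and 11.95 in control arrays (0.17, adjusted p 0.674), where PARK2 replicate 2 stood above the other arrays. The POSTN probe sets 1555777_at and 214981_at were below the filter. On 214981_at the groups overlapped, at means of 1.95 in PARK2 and 2.83 in control arrays. In 1555777_at every PARK2 value (1.73 to 6.83) was above every control value (0.436 to 1.08), all of them under the intensity of the filter. BGN codes for biglycan, and its probe set 201261_x_at measured 13.4, 8.22 and 4.82 in PARK2 arrays, against 18.7, 14.9 and 17.2 in control arrays. The BGN groups did not overlap, yet at -0.42 on the log2 scale (SE 0.22, 95% interval -0.89 to 0.05, limma's adjusted p 0.212) the probe set did not pass. The PARK2 mean of 8.82 was under the intensity of the filter, and the value ran from -0.96 with a pseudocount of 1 to -0.15 with 64. The other BGN probe sets, 201262_s_at and 213905_x_at, overlapped between groups, at means of 8.60 and 3.43 in PARK2 and 5.46 and 5.06 in control arrays.

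DCN, LUM and CCN4 were at low intensity in both groups. DCN codes for decorin, which binds collagen and TGF-beta, and its probe set 201893_x_at measured 16.5, 21.5 and 20.8 in PARK2 arrays, against 26.6, 14.3 and 21.6 in control arrays. The difference was -0.04 on the log2 scale (SE 0.21, 95% interval -0.48 to 0.41, limma's adjusted p 0.935), and DCN 211896_s_at was at 0.03 (adjusted p 0.961). The groups overlapped on all 7 DCN probe sets, and the 5 below the filter had PARK2 means of 3.08 to 10.9 and control means of 1.77 to 8.52. LUM codes for lumican, another collagen-binding leucine-rich proteoglycan. Its probe set 229554_at measured 10.2, 17.4 and 7.49 in PARK2 arrays, against 3.65, 9.55 and 1.57 in control arrays, with overlap. CCN4 belongs to the CCN family of matricellular proteins and is known as a gene induced by Wnt signalling. Its probe set 206796_at measured 0.668, 1.93 and 12.3 in PARK2 arrays, against 13.6, 14.8 and 8.54 in control arrays, where PARK2 replicate 3 lay among the controls. In a fit without the filter LUM 229554_at was at 0.41 (limma's adjusted p 0.270) and CCN4 206796_at at -0.47 (adjusted p 0.249). LUM 201744_s_at was at -0.004 (adjusted p 0.986) in that fit. The CCN4 probe sets 235821_at, 211312_s_at and 229802_at had the other sign, at 0.04, 0.16 and 0.10 (adjusted p 0.944, 0.672 and 0.803). No difference of LUM or CCN4 was detected.

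**Figure D2:**
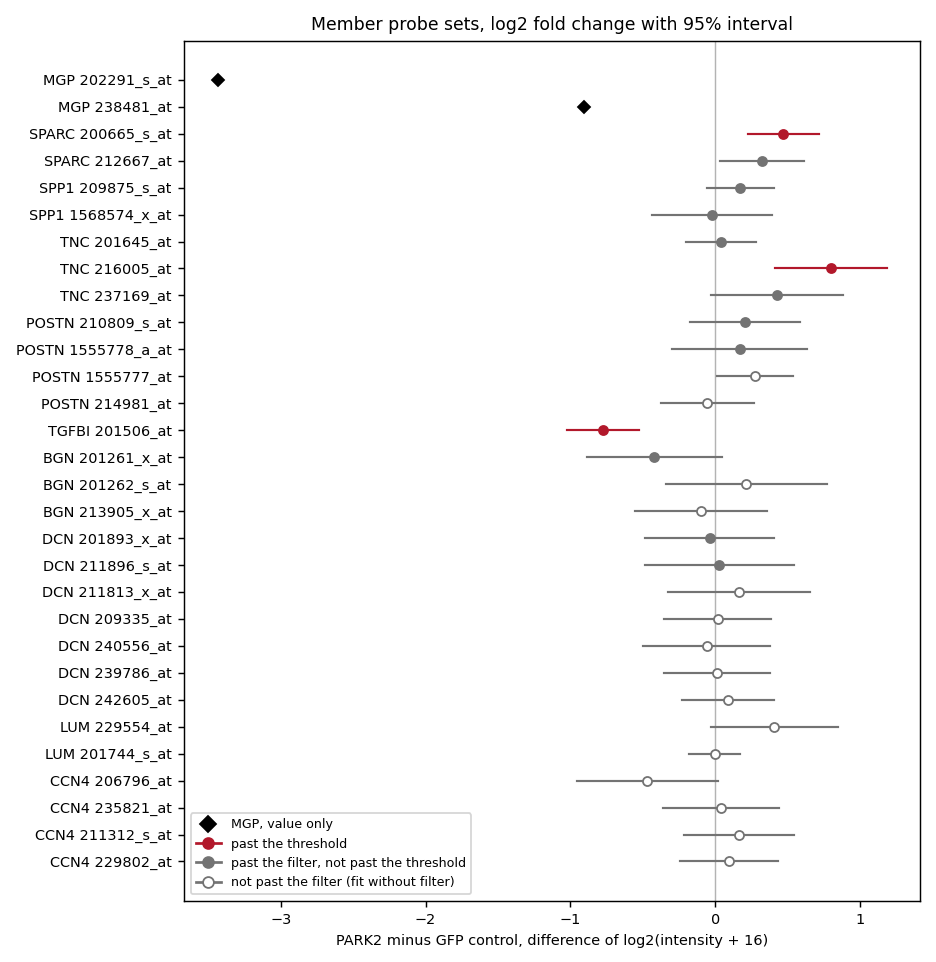
Log2 fold change, PARK2 minus GFP control, of all 30 member probe sets, with 95% intervals from limma for the 9 genes other than MGP. MGP is drawn as diamonds without an interval, filled points passed the filter, red marks the 3 probe sets past the threshold (SPARC 200665_s_at, TNC 216005_at and TGFBI 201506_at), and open points come from the fit without the filter.

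The proteins that share a family, a modification or a receptor with these members were examined in 7 lists of 114 different genes, of which 81 were tested. Of the 81, 8 were higher (9.88%) and 22 lower (27.2%), against 13.3% and 15.6% of all genes tested. The median log2 fold change was -0.05, against -0.00255 over all genes. The lists were chosen with earlier results of these data known, so no conclusion is drawn from these shares or from those of single lists. The fit as reported had 1818 higher and 2139 lower among all 13720 genes. Under quantile normalization 15 list genes were higher and 24 lower, where 2648 and 2550 of all 13716 genes tested were so. Without control replicate 1, 14 were higher and 21 lower, where 2799 and 1837 of all genes were so. For the settings named below, all genes numbered 4322 higher and 3854 lower with array weights, and 1478 and 1789 without the intensity trend. Without the filter they numbered 1401 and 1604 of 19775. Values in the following use, for every gene, its probe set of highest mean intensity, with limma's p-values adjusted over all genes.

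Among 12 tested matricellular relatives 1 rose (8.33%) and 2 fell (16.7%), against 13.3% and 15.6% of all genes tested. The list median was 0.11, and over the alternatives 1 to 5 rose and 1 to 4 fell. FSTL1, a secreted relative of SPARC, was at 4913 ± 298 in PARK2 and 2340 ± 136 in control cells (SD, n = 3 each), a log2 fold change of 1.06. SPOCK1, which codes for testican and also carries a SPARC-type domain, was at 1048 ± 26.1 in PARK2 and 2550 ± 282 in control cells (-1.26). THBS1, the thrombospondin-1 gene, fell by 0.30 on the log2 scale (adjusted p 0.0348). That call was lost without PARK2 replicate 1 (0.325), PARK2 replicate 2 (0.111), control replicate 2 (0.0912) or control replicate 3 (0.0512), and THBS1 was at 0.34 (adjusted p 0.0861) on the probe set used when those marked _x_at and _s_at are set aside. Of 7 other small leucine-rich proteoglycans tested with limma, 0 changed and 0 had an unadjusted p under 0.05, though 1 was lower with array weights. Their group means ran from 10.2 to 24.0, near the intensity of the filter, and 0 of them passed a filter at the 60th percentile. A change of such dim genes could be missed. PODNL1 was at -0.34 (adjusted p 0.355) and ECM2 at 0.25 (adjusted p 0.457).

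Genes of Gla proteins, of their carboxylation and of mineral matrix showed 1 rise (10%) and 4 falls (40%) among 10 tested. Of all genes tested 13.3% rose and 15.6% fell. The list median was -0.13, and 2 genes rose with array weights. GGCX codes for the carboxylase that modifies MGP and other Gla proteins, and it was at 166 ± 11.3 in PARK2 and 308 ± 77.9 in control cells (SD, n = 3 each, log2 fold change -0.80). VKORC1, which recycles vitamin K for that reaction, was at -0.18 (adjusted p 0.416). GAS6, a Gla-containing ligand of TAM receptors, rose by 0.57, at 399 ± 55.0 in PARK2 and 264 ± 42.5 in control cells. FAM20C, the kinase that phosphorylates osteopontin and other secreted proteins, fell to 787 ± 120 in PARK2 cells, against 1510 ± 293 in control cells (-0.92). VKORC1 is named in addition to the rule for named genes, after its value was seen.

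Of 16 tested receptors for these glycoproteins 1 rose (6.25%) and 7 fell (43.8%), against 13.3% and 15.6% of all genes tested. The list median was -0.20. Under quantile normalization 3 rose and 8 fell, without control replicate 1 2 rose, and without PARK2 replicate 2 4 fell. With array weights 5 rose, while 3 fell without the filter and 4 without the intensity trend. PTPRZ1, a receptor phosphatase that binds tenascin-C, was at 308 ± 37.6 in PARK2 and 961 ± 243 in control cells (log2 fold change -1.57). ITGA9, an integrin subunit of a receptor for tenascin-C and osteopontin, was at 65.4 ± 10.1 in PARK2 and 169 ± 20.1 in control cells (-1.19). SDC4, a heparan sulfate proteoglycan of the cell surface, rose to 1130 ± 49.2 in PARK2 cells, against 698 ± 83.5 in control cells (0.69).

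Of 14 tested genes of bone morphogenetic protein signalling 2 rose (14.3%) and 1 fell (7.14%), against 13.3% and 15.6% of all genes tested. The list median was 0.09, and 6 rose and 1 fell under quantile normalization or without control replicate 1. In this list 1 gene rose without control replicate 2, PARK2 replicate 2 or PARK2 replicate 3, 6 with array weights, 5 under trimmed mean scaling and 4 after the neighbour correction. Without the filter or after that correction 2 fell. FST, the activin-binding antagonist follistatin, was at 257 ± 34.1 in PARK2 and 41.5 ± 10.1 in control cells (SD, n = 3 each, log2 fold change 2.25). BMPR2, a type II receptor, rose by 0.49 (adjusted p 0.00886), and this call was lost as the mean of its probe sets (0.40, adjusted p 0.120) and without PARK2 replicate 2 (0.0960), PARK2 replicate 3 (0.0654) or control replicate 2 (0.0840). SMAD7, an inhibitory SMAD, fell to 53.5 ± 5.79 in PARK2 cells, against 149 ± 28.2 in control cells (-1.24). BMP2, BMP4 and BMP7 did not pass the filter.

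Of 10 tested genes of matrix processing and glycosaminoglycan chain synthesis 2 rose (20%) and 3 fell (30%), against 13.3% and 15.6% of all genes tested. The list median was -0.20, and 6 fell with array weights. TGM2, a transglutaminase that cross-links matrix proteins, was at 64.8 ± 11.1 in PARK2 and 289 ± 39.7 in control cells (SD, n = 3 each, log2 fold change -1.92). BMP1, a protease that processes procollagen and biglycan, fell by 0.73 on the log2 scale. Its groups overlapped, at 59.3 ± 20.8 in PARK2 and 109 ± 32.8 in control cells. This call of BMP1 was lost without the filter (adjusted p 0.09996), without PARK2 replicate 2 (0.108) or control replicate 1 (0.101). FAM20B and EXTL2, which both act on the linker of glycosaminoglycan chains, rose by 0.66 and 0.64. Of 12 tested genes of TGF-beta ligands, receptors and SMADs 1 rose (8.33%) and 5 fell (41.7%), against the same 13.3% and 15.6%. The list median was -0.34, and 2 rose and 5 fell under quantile normalization or without control replicate 1. Over all alternatives 1 to 4 rose and 2 to 7 fell, with 2 falls when probe sets marked _x_at and _s_at are set aside and 3 after the neighbour correction. TGFBR3, the co-receptor betaglycan, was at 62.9 ± 11.9 in PARK2 and 7.86 ± 4.15 in control cells, the control value being under the intensity of the filter. TGFBR3 thus passed the filter through the PARK2 arrays, and its log2 fold change of 1.73 was 2.95 with a pseudocount of 1 and 0.82 with 64. SMAD3, which carries the TGF-beta signal into the nucleus, was at 785 ± 84.0 in PARK2 and 1577 ± 162 in control cells (-0.99). SMAD4 fell by 0.67 on its brightest probe set, but as the mean of its probe sets was at -0.31 (adjusted p 0.142), and with the shift of chromosomal neighbours taken away at -0.13 (adjusted p 0.460).

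**Figure D3:**
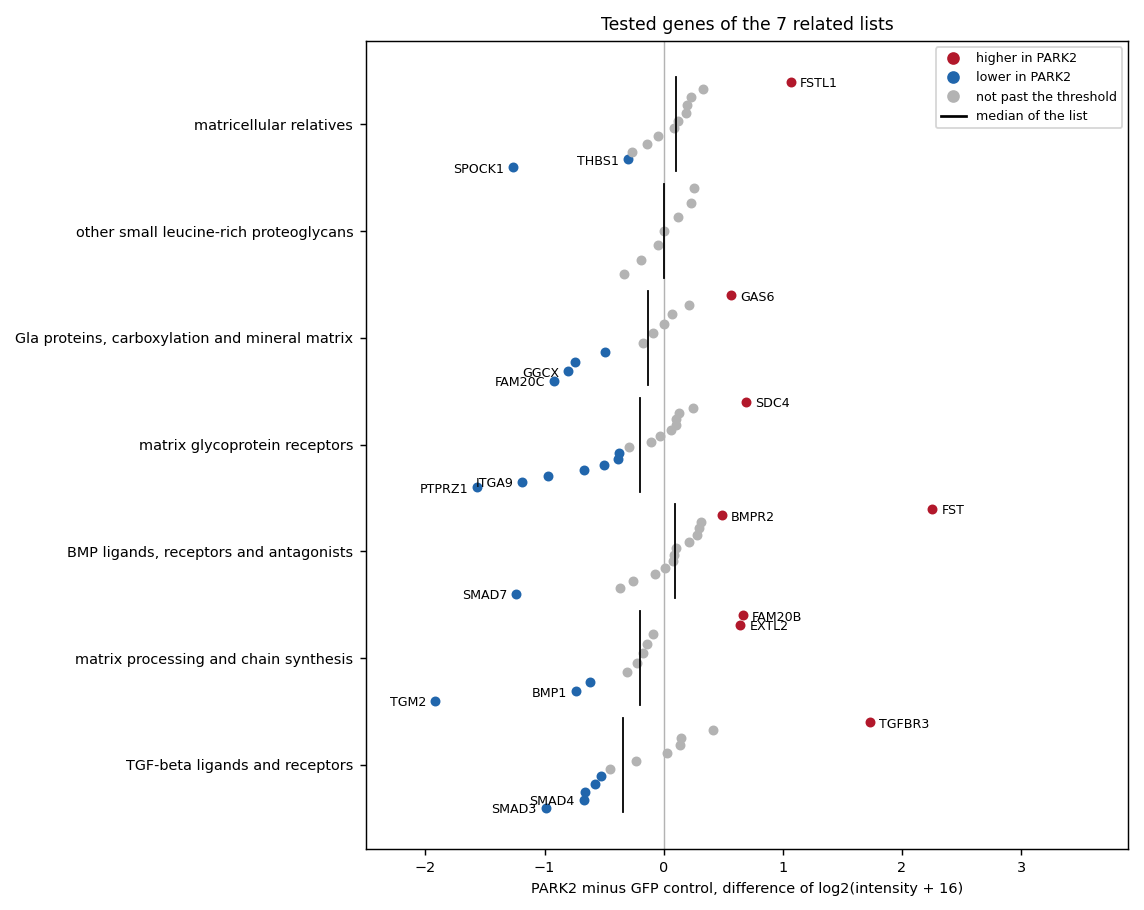
Log2 fold change, PARK2 minus GFP control, of the tested genes of 7 related lists, a point for each gene on its brightest probe set, with a black bar for the median of each list. Red points are higher and blue points lower in PARK2 cells at limma's adjusted p under 0.05, and the list of receptors has 7 blue points and 1 red point.

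**Figure D4:**
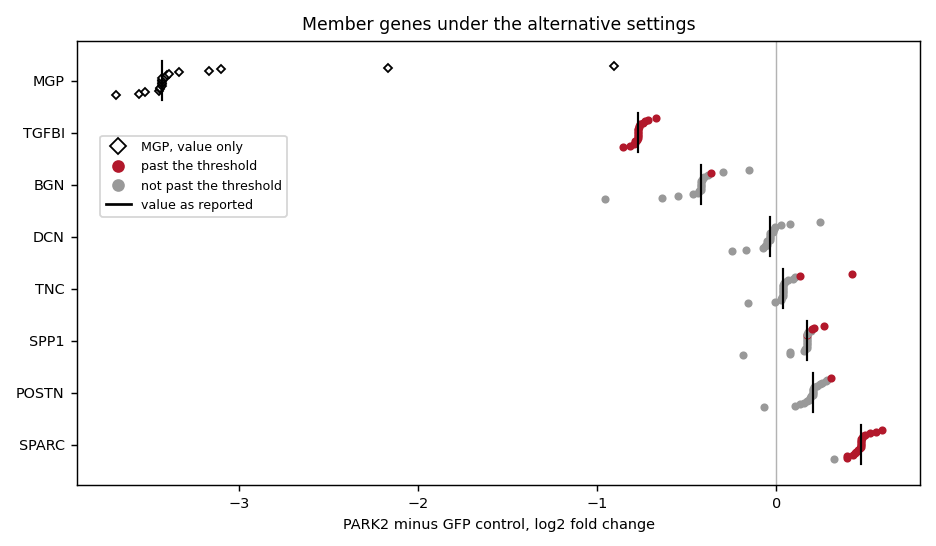
Log2 fold change, PARK2 minus GFP control, of the 8 member genes past the filter under each alternative setting (points) and as reported (black bar). TGFBI stays between -0.86 and -0.67 and SPARC between 0.32 and 0.59, while DCN, TNC, SPP1 and POSTN have points on both sides of 0.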

How the data were processed

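Gene expression was measured on 6 Affymetrix arrays, 3 of PARK2 and 3 of GFP control cells, grouped by their labels. The authors' deposited intensities are linear and were made with GCOS and MAS5, per the submitters' processing notes, with no version or scaling, so the scaling between arrays stays unknown. The array number limits the precision. Detection calls were not used here. Genes were named by GEO's platform annotation, with 0 symbols changed through RefSeq. The transgene's own level is not given here, so labels were taken as they stand.

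Intensities were turned into log2(value + 16) without further normalization and compared by limma 3.58.1 (R 4.3.3, intensity trend in the variance), over 26603 probe sets with 1 gene past the filter, or over 13720 genes on their brightest probe set. The fit was tested on simulated data. The variance model had 60.8 prior against 4 residual degrees of freedom, so small p-values lean on the model. The members and lists were chosen with earlier results of these data known. Named genes were all members, the 2 largest rises and falls past the threshold of each list, or its 2 smallest p where none passed, and the 3 genes nearest MGP.

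No arrays were duplicates (within-group correlations 0.984 to 0.988). Deviations of same-numbered arrays correlated at 0.168, 0.045 and 0.065, so the numbers were not taken as pairs. Alternatives covered the filter, pseudocount, scaling, variance model, array weights, threshold, replicate block, neighbouring genes, choice of probe set and leaving out each array.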

Additional observations from a re-analysis of the deposited data

How the results depend on the processing

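With 3 arrays a group the precision is limited, and intensities near or below 9.87 carry little order. TGFBI was past the threshold under all 20 alternatives. SPARC was so under 19 of 20 as a gene, the exception being its value without probe sets marked _x_at and _s_at (0.32, adjusted p 0.0649). The log2 fold change of MGP, whose sign its choice fixed, ran from -3.69 to -0.91. The cause of the changes below was not tested.

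Member genes other than MGP that were higher numbered 2 under quantile normalization, trimmed mean scaling and the mean of probe sets, 4 with array weights and 0 without probe sets marked _x_at and _s_at. Member probe sets that were higher numbered 1 without the filter and without the intensity trend, 4 under quantile normalization and trimmed mean scaling, and 5 with array weights. The share of all probe sets under these settings is not given, so no conclusion is drawn from these numbers. Genes of the 7 related lists that were higher numbered 15 under quantile normalization, 13 under trimmed mean scaling, 24 with array weights and 14 after the neighbour correction. Of all genes tested, 2648 were higher under quantile normalization, 2632 under trimmed mean scaling and 1942 after the neighbour correction, against 1818 as reported. With the mean of probe sets 1461 were higher, and 1719 without probe sets marked _x_at and _s_at. Array weights, whose estimation stopped before it converged, gave 4322 higher and 3854 lower of all genes and 2 lower member genes, adding BGN (-0.36, adjusted p 0.0344), and SPP1, POSTN (0.30, adjusted p 0.0141) and TNC (0.13, adjusted p 0.0438) to those higher. Leaving out single arrays, higher member genes ranged from 1 to 2, higher member probe sets from 2 to 4, higher related genes from 7 to 14 and all higher genes from 1225 to 2799, each highest without control replicate 1.

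Signs that turned were mostly of values near 0. Those of RUNX2 (-0.62), GFAP (0.53), SOX2 (0.30) and THBS1 (-0.30), which were past the threshold as reported, also turned in a setting each. With array weights DCN was at 0.24 as a gene and at 0.21 and -0.073 on 201893_x_at and 211896_s_at, and PODNL1 at 0.16. With a pseudocount of 1, DCN 211896_s_at was at -0.0083. After the neighbour correction SPP1 was at -0.19, TNC at -0.16, POSTN at -0.068 (1555778_a_at at -0.11), DCN 211896_s_at at -0.19, SOX2 at -0.18 and PECAM1 at 0.10. As the mean of probe sets GFAP was at -0.027, PECAM1 at 0.0021 and RUNX2 at 0.18, and THBS1 was at 0.34 without probe sets marked _x_at and _s_at. Leaving out single arrays, TNC (201645_at) ranged from -0.0094 to 0.10, DCN (201893_x_at) from -0.17 to 0.074, DCN 211896_s_at from -0.13 to 0.24, SPP1 1568574_x_at from -0.10 to 0.095, PECAM1 from -0.10 to 0.059 and KDR from -0.089 to 0.19.

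With the replicate number as a block, 1 member gene was higher and 1 lower, 2 member probe sets were higher and 1 lower, and 1556 of all genes were higher and 1897 lower, so the block changed no call of a member. Not every array correlated best with its own number, and the labels do not say what a number shares.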
